A study of Rattus norvegicus with 10 samples.

Results

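Antigen presentation by the major histocompatibility complex (MHC) was examined in the hippocampus of rats from lines bred for opposite responses to novelty, through 4 genes taken by identifier from the 16643 genes of the deposited table. The genes were Cd74 (ENSRNOG00000018735), RT1-Da (ENSRNOG00000032844), RT1-Ba (ENSRNOG00000000451) and B2m (ENSRNOG00000017123). All 4 were present, and their symbols were given with the identifiers, since the table itself holds no names. Whole-hippocampus polyadenylated RNA was sequenced from 5 bred High Responder (bHR) and 5 bred Low Responder (bLR) rats. All 10 were adult males of breeding generation 43 that had 1 intraperitoneal vehicle injection (equal parts saline and water) a day for 14 days from postnatal day 78, lived in standard housing, and were killed at postnatal day 92, 1 hour after 15 minutes on the elevated plus maze and a social interaction test. They are the vehicle controls of a larger drug and stress study, and rats that were not injected or not tested were not analysed here. Each rat is a separate animal, and the lines differ by selective breeding rather than by a single allele.

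MHC molecules carry peptides to the cell surface for inspection by T cells. Class II molecules, mainly made by microglia and macrophages in the brain, are pairs of an alpha and a beta chain that assemble on the invariant chain and present peptides from the endosome. Class I molecules are made by most cells, present peptides from the cytosol, and need beta-2 microglobulin as their light chain. Cd74 encodes the invariant chain, RT1-Da the alpha chain of the rat RT1.D class II molecule (the counterpart of human HLA-DRA), RT1-Ba the alpha chain of RT1.B (the counterpart of HLA-DQA), and B2m the class I light chain. Transcription of class II genes depends on an upstream module of X and Y boxes, which also occurs at B2m, and on the coactivator CIITA, while interferons raise both classes.

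The promoters are shown as a description, and whether they bear on the joint variation of 3 of the 4 genes among rats was not tested. RefSeq promoter windows on the GRCr8 build, 250 bases before to 50 after the start of transcription, were found for all 4 symbols, and each stretch below ends before the first base of the RefSeq gene record. It is written 5′ to 3′ on the plus strand, with matches to the motifs searched in capitals.
RT1-Da, chr20:4515307-4515382: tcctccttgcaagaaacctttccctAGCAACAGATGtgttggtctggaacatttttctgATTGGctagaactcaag
RT1-Ba, chr20:4576963-4577030: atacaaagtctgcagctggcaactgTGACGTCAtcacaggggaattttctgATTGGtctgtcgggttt
Cd74, chr18:56526992-56527033: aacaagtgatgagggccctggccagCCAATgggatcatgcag
B2m, chr3:129549155-129549201: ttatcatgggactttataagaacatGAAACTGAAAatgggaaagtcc
Motifs were searched on both strands, and a match is a description of the letters, not evidence of a bound site. The Y box core CCAAT, which reads ATTGG on the opposite strand, was found in all 4 windows: 49 bases before the start in RT1-Da, 43 in RT1-Ba, 189 in Cd74 and 64 in B2m. It is common, at 37.5% of 33469 rat promoter windows. The X2 core TGACG was found in RT1-Ba, on both strands in overlapping positions that share 2 letters of the palindrome, and in B2m, 89 bases before the start, against 21.2% of windows. The X1-like motif of class II promoters, present in 0.98% of windows, matched in RT1-Da. The interferon response element, present in 3.92%, matched in B2m. The CCAAT and TGACG matches of B2m lie inside its gene record and are not printed.

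The libraries held 29106105 to 48663164 reads in the table's genes. The library of bLR replicate 5 stands apart: 47 of its rows exceeded their median in the remaining libraries by over 3 log2 units, against 2 to 13 such rows in any other library, and these 47 rows took 7.86% of its reads against 0.488 to 0.843% elsewhere. None of the 4 MHC genes is among them. No identifier of the table could be paired with a symbol through RefSeq, so markers of microglia, border macrophages, T and B cells, choroid plexus and hippocampal neurons were not examined, and neither were the other class I and class II genes. In whole tissue, fewer cells of a type and less RNA per cell cannot be told apart.

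The class II genes were at similar levels in bHR and bLR, and rats within a line differed more than the lines did. Levels are log2 RPM, where RPM is the reads of a gene relative to the size of its library, and because they are not divided by transcript length, levels of different genes are not compared. Cd74 stood at 3.47, 3.38, 2.60, 3.20 and 3.55 in bHR replicates 1 to 5 and at 3.75, 3.33, 3.64, 3.28 and 2.80 in bLR replicates 1 to 5. The ranges overlap over most of their length, although bLR replicates 1 and 3 lie above every bHR rat. At the lower end, bHR replicate 3 and bLR replicate 5 lie below all other rats. In RPM this is 9.69 ± 2.24 (SD, n = 5) in bHR and 10.5 ± 2.53 in bLR, from 299 to 419 and from 189 to 500 reads per library.

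RT1-Da stood at 1.56, 1.16, 0.42, 1.06 and 1.64 in bHR replicates 1 to 5 and at 1.82, 1.16, 1.55, 1.55 and 0.61 in bLR replicates 1 to 5. The same 2 rats were lowest, and bLR replicate 1 was highest, as for Cd74. The means were 2.35 ± 0.72 RPM (SD, n = 5) in bHR and 2.63 ± 0.77 in bLR, from 41 to 131 reads per library. RT1-Ba, the other alpha chain, stood at 0.84, 0.32, 0.21, 0.76 and 0.79 in bHR and at 1.29, 0.51, 0.85, 0.67 and -0.15 in bLR. Here bHR replicate 3 was again the lowest of its line, with bHR replicate 2 close to it, and bLR replicates 1 and 5 spanned the whole range of the 10 rats. The means were 1.53 ± 0.30 RPM (SD, n = 5) in bHR and 1.63 ± 0.57 in bLR, from only 24 to 91 reads per library, the thinnest data of the 4 genes.

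B2m, the class I light chain, had the smallest range between rats of the 4 genes. Its counting error was also the smallest, at 0.015 log2 units against 0.078 to 0.20 in the class II genes. Its levels were 8.09, 8.07, 7.96, 7.98 and 8.04 in bHR replicates 1 to 5 and 8.17, 8.03, 7.93, 7.97 and 8.00 in bLR replicates 1 to 5. The highest rat exceeded the lowest by 1.10-fold in bHR and 1.18-fold in bLR, where Cd74 spanned 1.93-fold in each line, RT1-Da 2.33-fold in bHR and 2.32-fold in bLR, and RT1-Ba 1.55-fold and 2.73-fold. The means were 261 ± 10.4 RPM (SD, n = 5) in bHR and 260 ± 16.9 in bLR, from 7003 to 12340 reads per library.

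**Figure D1:**
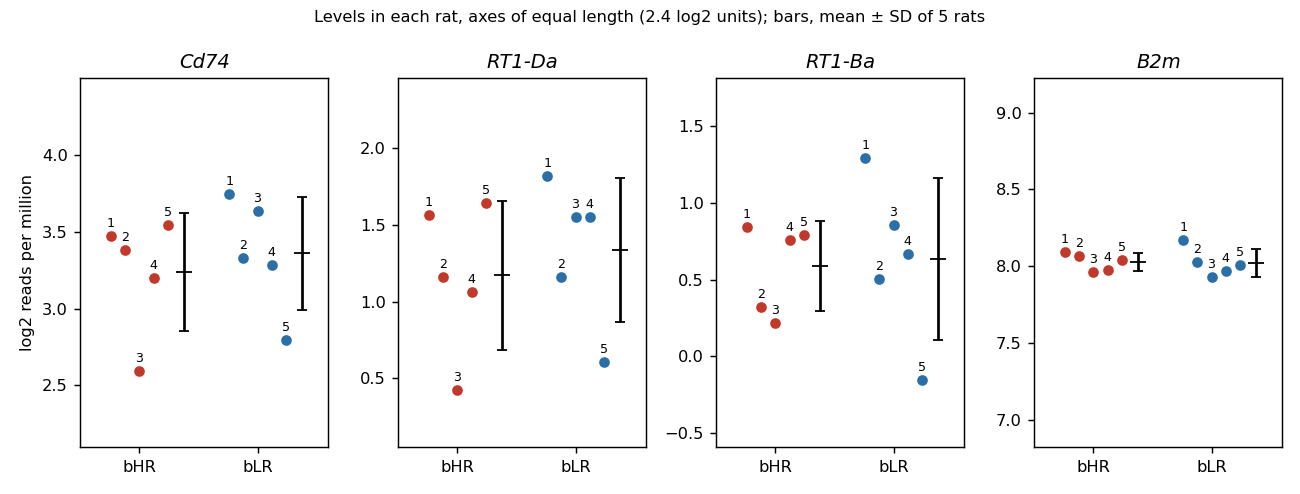
Levels of the 4 genes in each rat as log2 RPM, by line, with points numbered by replicate and bars for the mean ± SD of 5 rats. The axes cover different levels but the same length, so the closely spaced B2m points and the low bHR replicate 3 and bLR replicate 5 in the class II genes can be compared by eye. Counting error differs between the genes and is smallest for B2m.

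None of the 4 genes differed between the lines beyond the spread between rats. Over all genes 1.38% passed the test (limma, Benjamini-Hochberg adjusted p under 0.05), and 0 of the 4 did. At an unadjusted p under 0.05 the count was also 0 of 4, against 15.1% of all genes, and the lines overlapped in all 4, where 4.15% of all genes had lines that did not overlap. The log2 difference, bHR minus bLR, was -0.12 for Cd74 (SE 0.20, limma adjusted p = 0.82), -0.17 for RT1-Da (SE 0.26, adjusted p = 0.81), -0.05 for RT1-Ba (SE 0.24, adjusted p = 0.95) and 0.01 for B2m (SE 0.05, adjusted p = 0.95). The median over the 4 was -0.08, beside -0.01 over all genes. With voom weights the limma adjusted p was 0.72 or more for all 4. Two-sided exact permutation tests over all assignments of the rats to lines gave p = 0.60, 0.58, 0.85 and 0.87 in the same order, where the smallest possible p was 0.0079.

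The intervals show which differences these data leave possible. For B2m the 95% interval of the bHR to bLR ratio ran from 0.94 to 1.08. For the class II genes it was wide: 0.68 to 1.25 for Cd74, 0.60 to 1.32 for RT1-Da and 0.67 to 1.40 for RT1-Ba. The sign of the class II difference turned on single rats. Without bHR replicate 3 it was 0.04 for Cd74, 0.02 for RT1-Da and 0.05 for RT1-Ba, and without bLR replicate 5 it was -0.26, -0.35 and -0.24, with limma adjusted p of 0.53 or more in all of these.

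**Figure D2:**
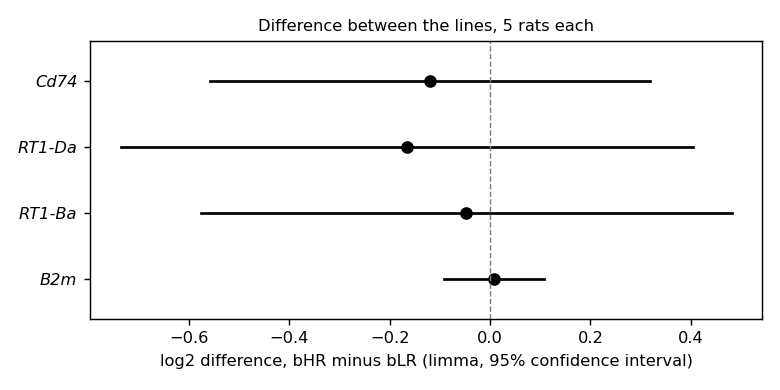
Log2 difference between the lines, bHR minus bLR, for the 4 genes, with points for the limma estimate and lines for the 95% confidence interval over 5 rats a line. All 4 intervals include 0, and that of B2m is the narrowest, from -0.09 to 0.11.

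The spread of all 4 genes was larger than read counting gives. The SD of Cd74 between rats of a line was 0.38 log2 units, 4.83 times the 0.078 expected from counting error alone at its read numbers. For RT1-Da it was 0.48, or 3.00 times counting error, and for RT1-Ba 0.43, or 2.13 times. Cd74 varied more than 96.3% of the 2141 rows whose mean level lay within 0.5 log2 units of its own, and RT1-Da more than 93.1% of 1226 such rows. RT1-Ba exceeded 84.5% of 1131 rows. B2m had an SD of 0.077, or 5.10 times its counting error of 0.015, the highest ratio of the 4 genes, and exceeded 62.2% of 627 rows of its level, whose median SD was 0.065.

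The class II genes rose and fell together from rat to rat. After the mean of its line was subtracted from each value, Cd74 and RT1-Da correlated with Pearson's r = 0.95 over the 10 rats (two-sided exact permutation of rats within lines, p = 0.00042, adjusted p = 0.0025 over the 6 pairs of genes) and Spearman's rho = 0.90 (exact p = 0.0025, adjusted p = 0.0075). RT1-Da and RT1-Ba, the alpha chains of different class II molecules, gave r = 0.87 (exact p = 0.0010, adjusted p = 0.0031) and rho = 0.89 (exact p = 0.0024, adjusted p = 0.0075). Cd74 and RT1-Ba gave r = 0.83 (exact p = 0.0037, adjusted p = 0.0074) and rho = 0.83 (exact p = 0.0096, adjusted p = 0.019). The order of the 5 bHR rats was the same for Cd74 and RT1-Da, and in bLR replicates 1 and 3 were the highest and replicate 5 the lowest for all 3 genes.

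The correlations were lower without the 2 lowest rats. Without bHR replicate 3 and bLR replicate 5, r was 0.78 for Cd74 with RT1-Da (exact p = 0.028 over 576 rearrangements), 0.74 for RT1-Da with RT1-Ba (exact p = 0.071) and 0.66 for Cd74 with RT1-Ba (exact p = 0.14). With 8 rats the relations of RT1-Ba with Cd74 and RT1-Da thus kept their direction but no longer passed the test. Leaving out any single rat kept r at 0.73 or above in the 3 pairs, with exact permutation adjusted p of 0.039 or less. Spearman's rho without bHR replicate 3 did not pass for Cd74 with RT1-Ba (0.82, exact permutation adjusted p = 0.065) or RT1-Da with RT1-Ba (0.80, adjusted p = 0.063). Depth differed between those 2 rats: bHR replicate 3 had the most reads, 48663164, bLR replicate 5 had 29211331. The 47 rows high in bLR replicate 5 took 7.86% of its reads and 0.618% of the reads in bHR replicate 3. Whether depth or these rows bear on the low class II levels of either rat was not tested. With total reads as library size instead of the effective sizes, r was 0.95, 0.86 and 0.88 for Cd74 with RT1-Da, Cd74 with RT1-Ba and RT1-Da with RT1-Ba. This scaling lowers every gene of bLR replicate 5 relative to the other rats, so it is no separate support.

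No relation of B2m with a class II gene passed the test over the 10 rats, and whether its correlations differ from those among the class II genes was not tested. Its r was 0.50 with Cd74 (exact permutation p = 0.17, adjusted p = 0.23), 0.47 with RT1-Da (exact p = 0.19, adjusted p = 0.23) and 0.43 with RT1-Ba (exact p = 0.31, adjusted p = 0.31). Spearman's rho was 0.56, 0.53 and 0.38 (exact p = 0.12, 0.14 and 0.32, adjusted p = 0.17, 0.17 and 0.32). Without the 2 rats farthest from the median of the first gene (bHR replicate 3 and bLR replicate 5 for Cd74, bLR replicates 1 and 3 for B2m), r was 0.53, 0.49 and 0.16. With total reads as library size, r was 0.68, 0.65 and 0.68 (exact permutation adjusted p = 0.073, 0.073 and 0.10). Without bLR replicate 3, which was high in class II and lowest of its line in B2m, r with Cd74 was 0.75 (exact permutation adjusted p = 0.048) and rho 0.83 (adjusted p = 0.036). The rat with the most B2m, bLR replicate 1, was also the highest for the 3 class II genes. Of the rats lowest in class II, bHR replicate 3 was also the lowest of its line in B2m, with a deviation from the line mean of -0.07, and bLR replicate 5 was in the middle of its line, with -0.01.

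**Figure D3:**
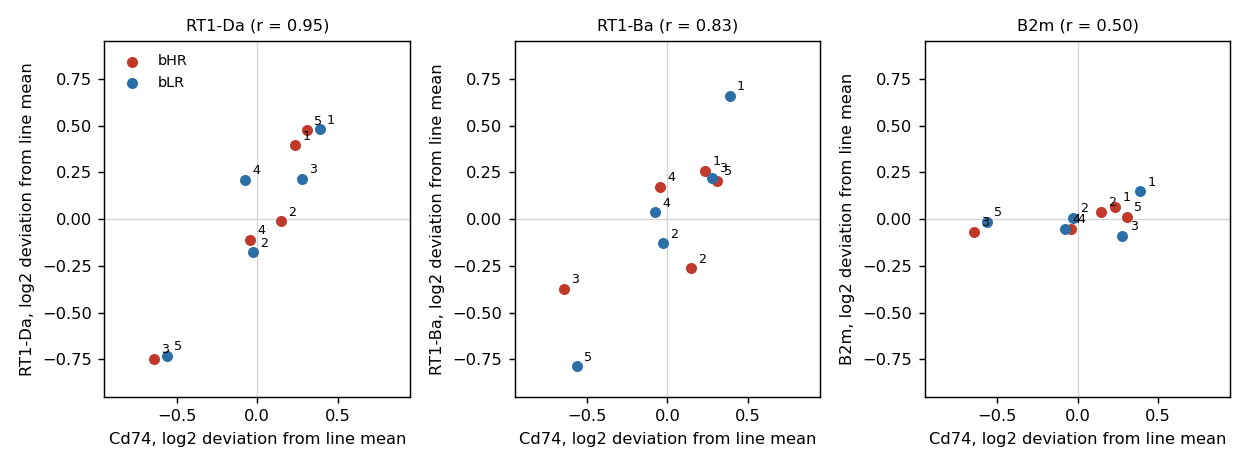
Deviation of each rat from its line mean, in log2 units, for RT1-Da, RT1-Ba and B2m against Cd74, with points coloured by line and numbered by replicate. The class II genes lie along a rising diagonal with bHR replicate 3 and bLR replicate 5 at the lower end (r = 0.95 and 0.83), while B2m deviates by -0.09 to 0.15 (r = 0.50).

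Within a rat, the proportions between the class II genes varied no more than counting error gives, or barely so. The within-rat log2 difference between Cd74 and RT1-Da had an SD of 0.17 between rats of a line, where counting error alone gives 0.18, although each gene by itself varied by 0.38 and 0.48. The difference between Cd74 and RT1-Ba had an SD of 0.24 against 0.22 from counting, and that between RT1-Da and RT1-Ba 0.24 against 0.26. Whether the proportions varied beyond counting was not tested, and at these read numbers some such variation could go unseen. Against B2m the SD was 0.34 for Cd74 (counting error 0.080), 0.45 for RT1-Da (0.16) and 0.40 for RT1-Ba (0.20). Because B2m itself had an SD of only 0.077, these differences carry nearly the spread of the class II gene alone. They therefore cannot show how the class II genes relate to B2m.

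**Figure D4:**
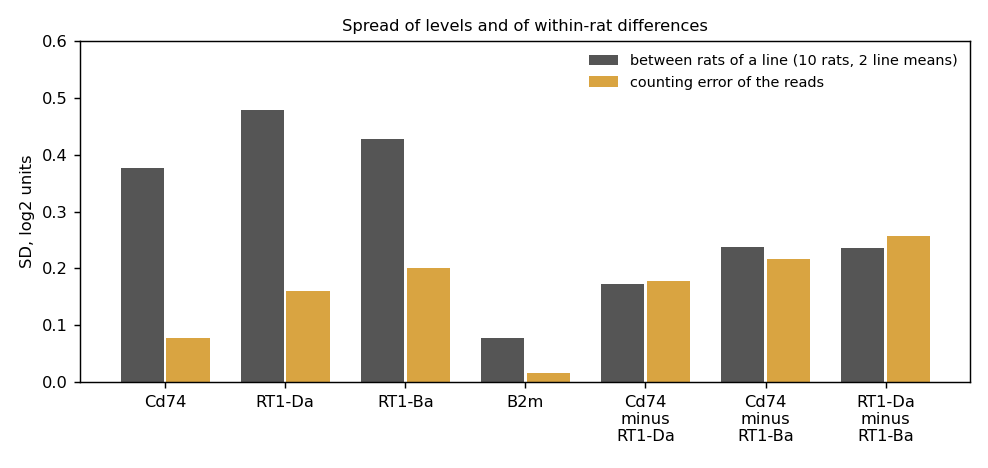
SD in log2 units between rats of a line (dark bars, 10 rats around 2 line means) and the SD expected from counting error (light bars), for each gene and for within-rat differences of the class II genes. The dark bars exceed the light ones in each single gene, and are 0.17 to 0.24 against 0.18 to 0.26 in the differences.

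The proportions between the genes were also compared between lines, which asks whether class I and class II or the 2 class II molecules differed between lines to unequal degrees. In none of 6 pairs did the difference between lines pass the test. B2m itself differed between lines by only 0.01, with an SD of 0.077 between rats of a line. The pairs with B2m therefore nearly repeat the line difference of the class II gene alone. RT1-Da minus RT1-Ba was 0.58 ± 0.31 log2 units (SD, n = 5) in bHR and 0.70 ± 0.13 in bLR, so that the lines were -0.12 apart (exact two-sided permutation p = 0.43, adjusted p = 0.80). Cd74 minus B2m was -4.79 ± 0.34 in bHR and -4.66 ± 0.35 in bLR, -0.13 apart (exact p = 0.56, adjusted p = 0.80). The other pairs differed by -0.07 to 0.17 with an exact permutation adjusted p of 0.80 or 0.85. Single rats moved these values: without bHR replicate 3, RT1-Da minus RT1-Ba differed by -0.025 and Cd74 minus B2m by 0.016, and without bLR replicate 5 Cd74 minus B2m differed by -0.26.

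Among all 16642 other rows, RT1-Da was the one whose line-centred pattern was most like that of Cd74. In the other direction Cd74 ranked 3 for RT1-Da. RT1-Ba ranked 61 for Cd74 and 29 for RT1-Da, and RT1-Da ranked 22 for RT1-Ba. B2m ranked 1665 for Cd74 and 2027 for RT1-Da. These correlations are a description over 10 rats that share their libraries.

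Of the rows with a mean level of at least 0, 2 rows without a symbol came next after RT1-Da for Cd74. ENSRNOG00000031703 had r = 0.94 with Cd74, 0.94 with RT1-Da, 0.84 with RT1-Ba and 0.48 with B2m, from 182 to 362 reads. ENSRNOG00000012739 had r = 0.93, 0.92, 0.74 and 0.46 in the same order, from 287 to 499 reads. At r of 0.8 or above there were 113 rows for Cd74, 122 for RT1-Da, 103 for RT1-Ba and 121 for B2m, or 0.679, 0.733, 0.619 and 0.727% of the other rows. With the 4 genes left out, 69 rows were common to Cd74 and RT1-Da, 62.2% of the rows of Cd74 and 57.5% of those of RT1-Da. Cd74 and RT1-Ba had 29 in common (26.1 and 28.7%), and RT1-Da and RT1-Ba 37 (30.8 and 36.6%). Cd74 and B2m had 0 in common, as had RT1-Da and B2m, and RT1-Ba and B2m had 1. Such overlaps follow largely from the r between the genes themselves over the same rats, so they are no separate support.

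**Figure D5:**
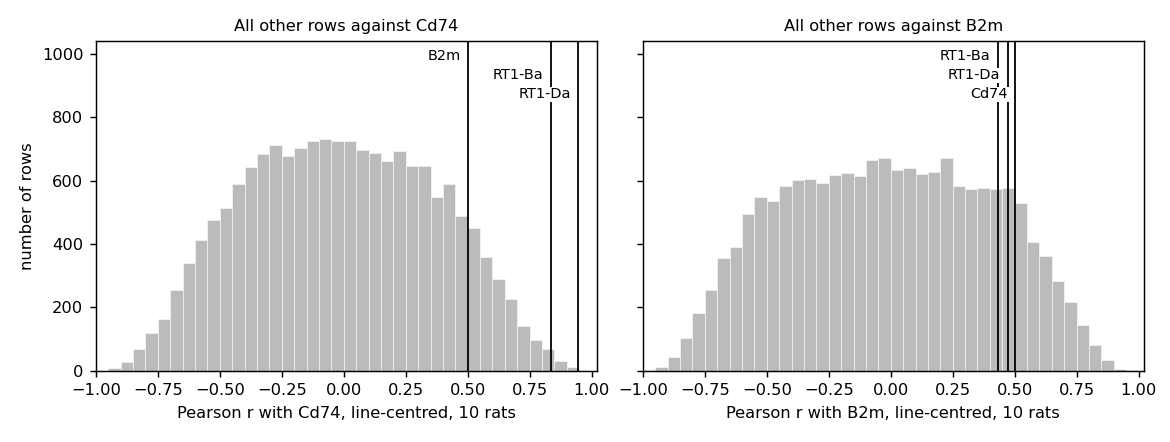
Number of rows by their Pearson r with Cd74 (left) and with B2m (right), over line-centred values of 10 rats, with vertical lines at the other MHC genes. RT1-Da (0.95) and RT1-Ba (0.83) lie in the upper tail for Cd74, while all 3 class II genes lie between 0.43 and 0.50 for B2m.

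RT1-Ba and RT1-Da lie 4 rows apart in the deposited table, and RefSeq on GRCr8 places RT1-Db1 and RT1-Db2, which encode RT1.D beta chains, and a pseudogene between them on chromosome 20. The rows between them in the table were not matched to those genes. The 3 rows gave r from -0.48 to 0.65 with Cd74, -0.61 to 0.48 with RT1-Da and -0.36 to 0.38 with RT1-Ba. Many class II genes, though not all, are highly polymorphic or have close relatives, and reads were aligned to a single reference genome without indels. How far alleles or shared reads between relatives touch the counts of RT1-Da and RT1-Ba was not tested.

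Class II levels and social behaviour were compared within lines through the social interaction score of each rat, which the labels give without a unit. With line and score as terms of a limma model, 0% of all genes passed at an adjusted p under 0.05 (7.11% at an unadjusted p under 0.05, 0 genes with voom weights at an adjusted p under 0.05), and 0 of the 4 MHC genes did. The slopes were 0.050 log2 units per point for RT1-Da (SE 0.021, limma adjusted p = 0.69, unadjusted p = 0.038), 0.039 for RT1-Ba (SE 0.021, adjusted p = 0.74, unadjusted p = 0.089) and 0.024 for Cd74 (SE 0.019, adjusted p = 0.81, unadjusted p = 0.22). For B2m it was -0.0012 (SE 0.0045, adjusted p = 0.97). The rat with the lowest score, 7.33 in bLR replicate 5, was also the lowest bLR rat in class II, but bLR replicate 4, with the highest bLR score of 24.0, was not the highest bLR rat in any class II gene. The slopes leaned on these rats. Without bLR replicate 5 they were 0.036 for RT1-Da, 0.022 for RT1-Ba and 0.011 for Cd74 (limma unadjusted p = 0.12, 0.28 and 0.57). Without bLR replicate 4 they were 0.084, 0.079 and 0.058 in that order (limma unadjusted p = 0.015, 0.014 and 0.035, adjusted p = 1.00 for each).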

How the data were processed

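The authors' deposited values are log2 RPM from limma voom (reads plus 0.5 over an effective library size) for 16643 genes in 10 rats, 1 column each. Per the labels' protocols, single reads of 50 bases were aligned to Rnor_6.0 with Subread, counted with featureCounts on Ensembl release 85, and genes were kept where 5 or more samples had 16 or more counts. R 3.2.2 is named per the submitters' processing notes. The labels call the sequencing non-stranded and name no strand option for featureCounts, so reads of overlapping genes on opposite strands may not be told apart. All 4 genes met that filter in these 10 libraries.

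With a single factor for each library, 100% of the values came back as whole reads within 0.01. These reads gave depths and counting error. Line differences came from limma 3.58.1 (R 4.3.3) on the deposited log2 values, line as the only term, intensity trend, Benjamini-Hochberg adjustment over all genes at 0.05. Within-line relations used line-centred values and 14400 exact rearrangements of rats within lines. Scripts were tested on simulated data. Python 3.11.15 (pandas 2.3.3, numpy 2.4.6, matplotlib 3.10.9) made the tables and figures. Alternatives covered the variance prior, filter, scaling, weights, prior count, replicate block, score and each rat left out. The 4 genes, lists, motifs and tests were chosen with earlier results of these data known. Named genes are the 4 and, for Cd74, the rows most like it with a mean level of at least 0. The 90 listed pathway and marker symbols had no match (0 of 16643 identifiers in the RefSeq table, GRCr8) and were not analysed here.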

Additional observations from a re-analysis of the deposited data

Results flagged for a closer look

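One value within a line stood apart in the 26 groups of 5 values searched: the levels of the 4 genes, their 6 within-rat differences, total reads, effective size over total reads, and the social score. The effective library size of bLR replicate 5 came to 0.933 of the reads counted in it, and the closest of the bLR libraries came to 1.00. Chance flags about 1 in 20 groups. No value of Cd74, RT1-Da, RT1-Ba or B2m, and no difference between them, stood apart in this way, also not the low class II levels of bHR replicate 3 and bLR replicate 5.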

How the results depend on the processing

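No alternative brought a line difference, a slope on the score or a difference of proportions past an adjusted p of 0.05 for any of the 4 genes. With the score as a covariate the line differences were -0.33 for Cd74, -0.61 for RT1-Da, -0.40 for RT1-Ba and 0.02 for B2m (limma adjusted p of 0.44 or more). Leaving out 1 rat moved them from -0.26 to 0.041, from -0.35 to 0.021, from -0.24 to 0.12 and from -0.014 to 0.045. The slopes on the score ran from 0.011 to 0.058 for Cd74, 0.036 to 0.084 for RT1-Da, 0.022 to 0.079 for RT1-Ba and -0.0037 to 0.0028 for B2m. Pearson's r of the class II pairs passed under each alternative with all rats or with 1 left out. Without both bHR replicate 3 and bLR replicate 5 it did not pass for the pairs of RT1-Ba (exact permutation p = 0.14 with Cd74 and 0.071 with RT1-Da). Spearman's rho did not pass for these pairs without bHR replicate 3 (exact permutation adjusted p = 0.065 with Cd74 and 0.063 with RT1-Da). Without 1 rat r ran from 0.91 to 0.98 for Cd74 with RT1-Da, 0.73 to 0.91 for Cd74 with RT1-Ba and 0.79 to 0.90 for RT1-Da with RT1-Ba. B2m gave 0.32 to 0.75 with Cd74, passing only without bLR replicate 3 (exact permutation adjusted p = 0.048), 0.28 to 0.64 with RT1-Da and -0.079 to 0.61 with RT1-Ba. Line differences of proportions ran from -0.26 to 0.016 for Cd74 minus B2m, -0.026 to 0.088 for Cd74 minus RT1-Da, -0.17 to -0.0045 for Cd74 minus RT1-Ba, 0.0041 to 0.35 for B2m minus RT1-Da, -0.072 to 0.25 for B2m minus RT1-Ba and -0.19 to -0.025 for RT1-Da minus RT1-Ba.

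Over all genes, 230 changed between lines, 152 without the intensity trend, 46 with the score as a covariate and 108 to 216 without 1 rat, fewer by over 1.5 times without bHR replicates 1, 2, 3 or 4 or bLR replicates 2 or 3. The cause was not tested for settings with all rats. Scaling to total reads gave 112 higher and 82 lower, against 102 and 128. With the replicate block 108 genes changed, 0 of the 4 among them, and 1 gene followed the score, with a rising slope. Without the trend 1 gene also followed the score, but with a falling slope. The numbers showed no sign of a pairing: bHR and bLR rats of equal number correlated at -0.15 to 0.10, and in 0 of 5 cases was that the best match. With so few cases this check cannot exclude a pairing. With the block, the differences of proportions gave an exact p of 0.50 or more, the smallest possible being 0.063. The count test on recovered reads was not run. With 24 to 131 reads per library, depth limits RT1-Da and RT1-Ba most.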
